A study of Drosophila melanogaster with 4 samples.

Results

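Broad domains of dimethylated lysine 79 of histone H3 (H3K79me2) are described here in late embryos of Drosophila melanogaster. They were selected on width alone, as the enriched regions of at least 7 kb in the list deposited for the replicate set, and 272 of its 5314 enriched regions passed that limit. The remaining 5042 regions are called narrower below. All samples were formaldehyde-fixed whole embryos of the wild-type strain Oregon-R, labelled 14 to 16 h, and the study comprised 2 chromatin immunoprecipitation (ChIP) samples and 2 input samples. The inputs are chromatin that did not pass through the antibody step and are not analysed here on their own. ChIP replicate 1 and ChIP replicate 2 each had their own list of enriched regions, so every domain can be looked up in both. Whole embryos mix all cell types, so a higher level per cell and a larger share of cells with the mark cannot be told apart. No label states whether each replicate had its own collection of embryos, so the spread between replicates may be technical.

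Lysine 79 lies on the surface of the nucleosome core rather than on a histone tail. It is methylated by the Dot1 family, which has a single member in the fly, grappa. The mark is laid down behind elongating RNA polymerase II, and in animals it typically starts near the promoter and extends into the body of transcribed genes, so that its breadth differs from gene to gene. The files hold neither expression values nor genes, and positions are given on FlyBase release 5 of the genome.

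Broad domains made up 5.12% of the enriched regions and 12.9% of the enriched length, 2.43 of 18.9 Mb. Regions of at least 7 kb held 6.71% of the enriched length in the list of replicate 1 and 16.6% in that of replicate 2. Their median width was 8312 bp, with quartiles of 7566.5 and 9789.5 bp and a maximum of 18709 bp, against a median of 2953 bp in the narrower regions. Most lay close to the limit: 110 measured 7 to 8 kb, 101 measured 8 to 10 kb, 42 measured 10 to 12 kb and 19 measured 12 kb or more. The limit cuts through a continuous range of widths. The 3 domains just inside it spanned 7001 bp (2L from 16323050, score 2.79), 7013 bp (2L from 16305486, score 2.65) and 7023 bp (2R from 14497076, score 2.54). The 3 regions just outside it, 6993, 6987 and 6983 bp wide, scored 3.00, 2.55 and 2.11. The number of regions past the limit was 131 in replicate 1 and 347 in replicate 2, 2.57% and 6.86% of each list, a mean of 239 ± 152.7 regions (SD, n = 2).

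The score is the authors' own value for each region, in no stated unit, and is compared here by differences only. Width and score come from the same enrichment, so the scores describe the domains and are not tested. Broad domains had a median score of 2.70 (quartiles 2.46 and 2.89), and narrower regions one of 1.85 (0.81 and 2.54). Of the 272 domains, 258 scored above 2 (94.9%), as did 2319 of the 5042 narrower regions (46.0%), and 1 domain scored under 1, against 1550 narrower regions. The top 10% of scores held 62 domains, 22.8% of them, and 469 narrower regions, 9.30%. Among the narrower regions score went with width, with a Spearman correlation of 0.71 across 5042 regions. Across the 272 domains it was 0.11. The 61 domains of 10 kb or more had a median score of 2.77, the 211 others 2.67, and the 588 regions of 5 kb to under 7 kb 2.57. All these regions come from 1 list, in which width and score are set by the same reads.

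**Figure D1:**
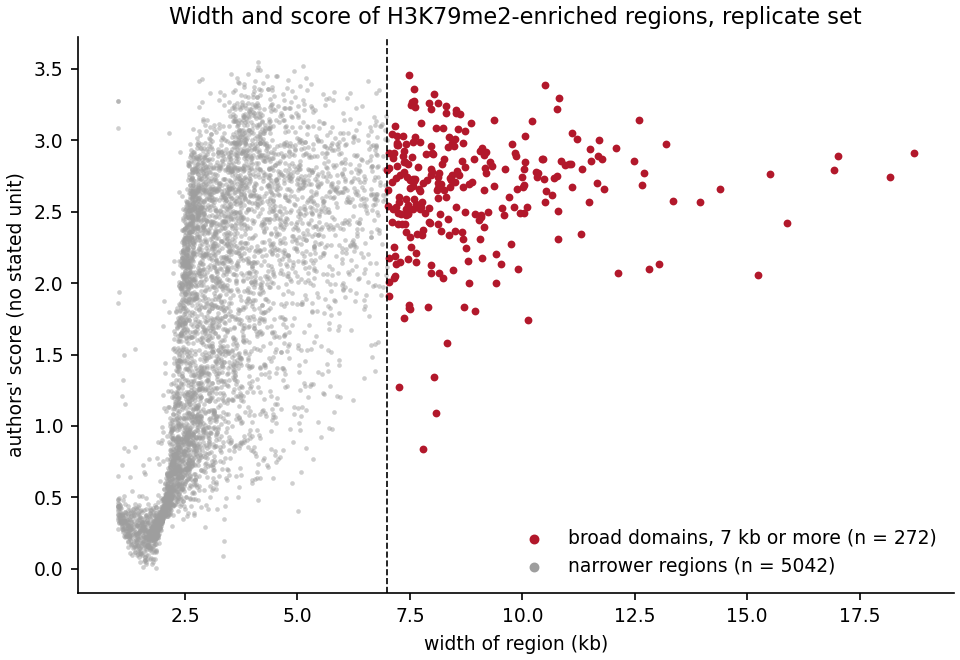
Score against width (kb) for every enriched region of the replicate set, 1 point per region, with the 272 broad domains in red, the 5042 narrower regions in grey and the 7 kb limit as a dashed line. The median score climbs from 0.30 in the 1 to 2 kb class to 2.51 at 4 to 5 kb and lies between 2.52 and 2.79 in the wider classes, and the domains reach out to 18.7 kb.

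Most domains scored higher in replicate 1 than in replicate 2. Taking the widest region that touches a domain, the median score was 2.92 in replicate 1 and 2.55 in replicate 2 (mean 2.74 ± 0.26, SD, n = 2), against 2.11 and 1.86 for the narrower regions. For the domains, the regions so compared were unlike in width, with medians of 6959.5 bp in replicate 1 and 8637.5 bp in replicate 2. No common scale of the scores is stated for the replicate lists. Replicate 1 scored higher than replicate 2 in 237 of 272 domains (87.1%), and the median difference (replicate 1 minus replicate 2) over all 272 was 0.35. Over the 4397 narrower regions touched by both lists it did so in 2859 (65.0%), and the median difference over all 4397 was 0.20. Of the 588 regions of 5 kb to under 7 kb, replicate 1 scored higher in 469 (79.8%). The scores of the replicates had a Spearman correlation of 0.52 across the 272 domains, over a narrow range of scores, and 0.84 across the 4397 narrower regions.

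The 8 highest-scoring domains lay on X (4), 2L (2), 2R (1) and 3L (1), and each was a single region in both replicates. The first, on X from 11240120 to 11247590 (7.47 kb), had a score of 3.46, with 3.68 in replicate 1 and 3.34 in replicate 2. The second, on X from 1765864 to 1776378, combined a width of 10.5 kb with a score of 3.38 and was held over 97.5% of its length by replicate 1 and over all of it by replicate 2. On 2L, the domain from 2764096 to 2771696 (7.60 kb) had nearly equal scores of 3.40 in replicate 1 and 3.34 in replicate 2. A further wide one stood on X from 7822858 to 7833670, with 10.8 kb and a score of 3.29. Replicate 1 covered 90.5% to 98.0% of these 8 domains. Over all 272 domains the score and the share covered by replicate 1 had a Spearman correlation of 0.30.

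At the other end, 5 domains scored under 1.6. The lowest, on 2L from 17560274 to 17568056 (7.78 kb), scored 0.84, with 1.16 in replicate 1 and 0.93 in replicate 2. Replicate 1 held 51.4% of it and replicate 2 held 89.97%. The next, on 3L from 13911044 to 13919132, scored 1.09 and was 1 region of 8.05 kb in replicate 2 but 3 in replicate 1, the widest of 2.97 kb. A low score did not always go with sparse surroundings: the domain on 2L from 10338566 to 10345816 scored 1.28, yet other enriched regions covered 62.0% of the 50 kb on either side, the highest value of any domain. The domain on 3R from 6432476 to 6440790 scored 1.58 and had no other region for 189.8 kb on its left, with 1.21% of its flanks covered.

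How each domain is held was read from the replicate lists, counting as a piece every region that shares at least 1 bp with the domain. No domain was missed: both lists touched all 272. Both also touched all 588 regions of 5 kb to under 7 kb, so this was not particular to the domains. Of all narrower regions, replicate 1 missed 411 (8.15%) and replicate 2 missed 331 (6.56%). A single piece held 172 domains in replicate 1 (63.2%, 95% Wilson interval 57.4% to 68.7%) and 261 in replicate 2 (96.0%, 92.9% to 97.7%), against 89.2% and 92.5% of all enriched regions of the list. In both replicates at once it was 166 domains (61.0%), against 83.7% of all regions. Those background shares include the narrow regions that a replicate missed altogether. Several pieces held 100 domains in replicate 1 (36.8%, 31.3% to 42.6%), against 3.11% of all regions, and 11 in replicate 2 (4.04%, 2.27% to 7.10%), against 1.28%. In full, 89 domains were 2 pieces in replicate 1 and 1 in replicate 2, 6 were 3 and 1, 6 were 1 and 2, and 5 were 2 in each. Where the replicates differed, replicate 1 had more pieces in 95 domains and replicate 2 in 6.

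Splitting in replicate 1 was more frequent in wider regions up to 12 kb. It affected 5.69% of regions of 5 to 6 kb, 16.0% at 6 to 7 kb, 20.9% at 7 to 8 kb, 42.6% at 8 to 10 kb, 61.9% at 10 to 12 kb and 42.1% of the 19 domains beyond 12 kb. In replicate 2 the shares stayed between 2.38% and 10.5% over the same classes. Replicate 1 also had fewer regions of at least 7 kb in its list, and the part of this in the counts was not tested.

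**Figure D2:**
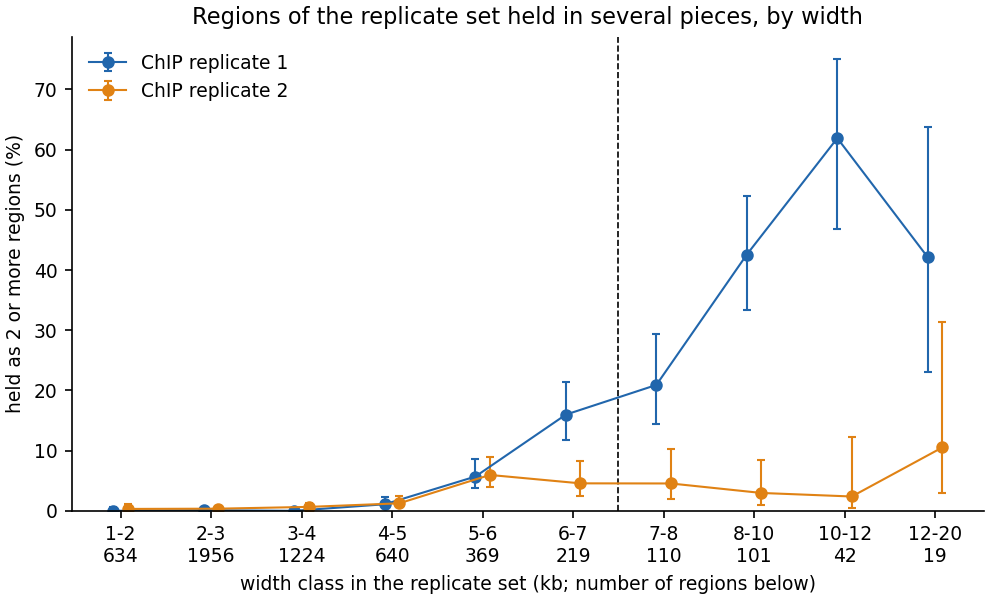
Share of regions of the replicate set held as 2 or more regions by ChIP replicate 1 (blue) and ChIP replicate 2 (orange), by width class in kb, with 95% Wilson intervals and the number of regions under each class; the dashed line is the 7 kb limit. Replicate 1 climbs to 61.9% at 10 to 12 kb, while replicate 2 stays at or under 10.5% in every class.

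The breaks were short. In replicate 1 the 100 split domains held 106 gaps between pieces, with a median of 220 bp, quartiles of 92.8 and 423 bp and a range of 6 to 2279 bp. Of these gaps 81 were under 500 bp (76.4%), 29 under 100 bp, and 13 were 1000 bp or longer. In replicate 2 the 11 gaps had a median of 67 bp, and 1 reached 1208 bp. With pieces less than 500 bp apart counted as 1, a single piece held 95.2% of the domains as the mean of the replicates, against 79.6% ± 23.1 (SD, n = 2) as deposited. The median score in the replicate set was 2.67 for the 100 domains that replicate 1 splits and 2.71 for the 172 that it does not, and the median widths were 9089 and 7990 bp. In the split domains the widest piece spanned a median of 54.7% of the domain, and in 14 of the 100 that piece still measured 7 kb or more.

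Most of a domain was held in both lists. Replicate 1 covered a median of 93.3% of a domain and 90.1% of their summed length, and replicate 2 covered 100% and 99.4%. At least 50% was covered in both lists for 271 domains (99.6%), against 87.5% of all regions. It was also so for 584 of the 588 regions of 5 kb to under 7 kb (99.3%), so this was not particular to the domains. Replicate 2 covered 177 domains in full (65.1%), against 38.7% of narrower regions and 57.8% of those of 5 kb to under 7 kb. Replicate 1 covered no domain in full, against 3.43% of narrower regions and 0.51% of those of 5 kb to under 7 kb. What replicate 1 left out lay mainly at the ends: of 242 kb without a piece, the gaps between pieces made up 40.9 kb, or 16.9%. Where a domain was 1 piece in replicate 1 that reached no other region, the piece was narrower than the domain in 171 of 172 cases. The median difference (piece minus domain) was -552.5 bp, and the piece began a median of 178.5 bp inside the lower end and stopped 193 bp inside the upper end. In replicate 2 it was wider in 219 of 249 cases, and the median difference over all 249 was 141 bp. The directions were not particular to the domains. Over the narrower regions touched, the median offset (replicate minus region) was 96 bp at the lower end and -93 bp at the upper end in replicate 1. In replicate 2 it was -39 and 37 bp.

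Some pieces ran past a domain into the next region of the set. In replicate 2 this was so for 16 domains (5.88%), against 210 narrower regions (4.17%), and in replicate 1 for 1 domain (0.37%), against 11 narrower regions (0.22%). A clear case is the domain on 2L from 19575050 to 19588998 (13.9 kb, score 2.57). Replicate 2 began 5.28 kb before it with a region of 16.3 kb and closed it with a second of 2.92 kb, while replicate 1 held it as 1 region of 13.5 kb.

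The 15 widest domains show the same patterns at single sites. Replicate 2 held 13 of them as 1 piece and replicate 1 held 8. On X, the 15.9 kb domain from 1962156 to 1978050 (score 2.42) was 1 region of 17.5 kb in replicate 2. In replicate 1 it was 2, of 7.88 kb with a score of 2.09 and of 4.48 kb with a score of 3.21, which left 2.40 kb bare at the lower coordinate. On 2L, the 15.5 kb domain from 4451152 to 4466652 (score 2.76) was 1 region of 15.8 kb in replicate 2 and 3 in replicate 1, of 9.96, 2.38 and 2.37 kb, whose scores were 3.16, 1.77 and 1.68. A second domain in 3 pieces stood on 2L from 2744064 to 2757108 (13.0 kb, score 2.13), with pieces of 2.60, 2.78 and 4.18 kb in replicate 1 and a gap of 2279 bp, the widest inside any domain. Replicate 2 covered that gap with a single region of 13.4 kb.

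**Figure D3:**
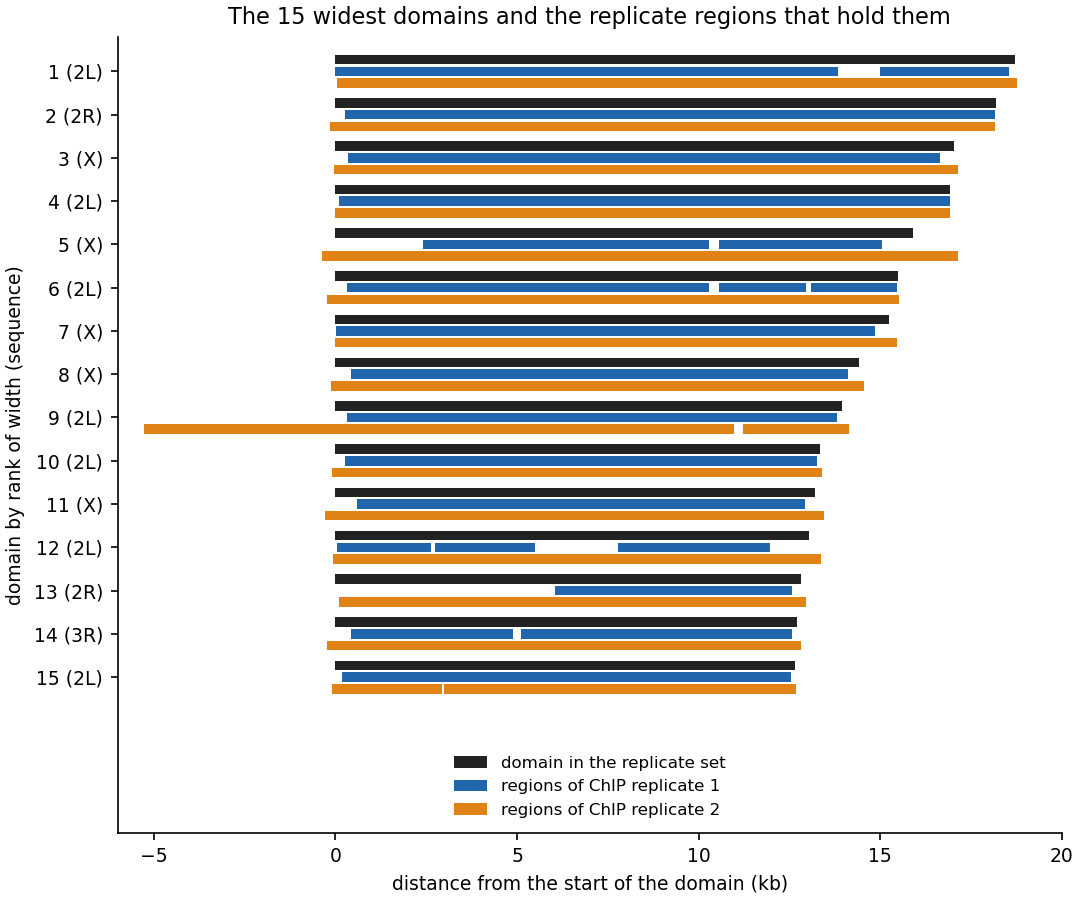
The 15 widest domains of the replicate set (black, by rank of width, with the sequence in brackets) and the regions of ChIP replicate 1 (blue) and ChIP replicate 2 (orange) that touch them, by distance in kb from the start of the domain. Replicate 1 breaks or shortens several bars that replicate 2 fills; its breaks of 8 bp in the second domain and 9 bp in the last are too narrow to show.

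The widest domain of 3R, from 5374618 to 5387322 (12.7 kb, score 2.77), was 2 regions of 4.46 and 7.46 kb in replicate 1, 218 bp apart, and 1 of 13.1 kb in replicate 2. The widest of 3L, from 16572668 to 16585270 (12.6 kb), scored 3.14, above any of the 15 widest. Replicate 1 held it with a single region of 12.4 kb and replicate 2 with one of 12.7 kb. On 2L from 10258882 to 10271544 (12.7 kb, score 2.69) both replicates broke the domain near the same place. Replicate 1 gave pieces of 2.94 and 9.43 kb with 9 bp between them, and replicate 2 gave 3.03 and 9.71 kb with 34 bp between them. The only domain with a gap of over 1000 bp in both lists was that of 9.71 kb on X from 6420360 to 6430068, with 1852 bp in replicate 1 and 1208 bp in replicate 2. On 2R, the domain from 19790442 to 19799382 (8.94 kb, score 1.81) was the reverse of most: replicate 1 held 96.2% of it in 3 pieces and replicate 2 held 79.5% as 1 piece, its lowest value for any domain.

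A small group was held only in part by replicate 1. It covered under 60% of 8 domains, always with a single piece, which lay at the lower end in 4 and at the upper end in 4. Only 1 was under 50%, the domain on 3R from 8835296 to 8844538 (9.24 kb, score 2.50). There replicate 1 held 4.48 kb, or 48.5%, with a score of 3.55, and replicate 2 held all of it as a region of 9.59 kb with a score of 2.27. On 2R from 5430872 to 5443680 (12.8 kb, score 2.10) replicate 1 held 6.51 kb with a score of 3.28, and replicate 2 held 12.9 kb with a score of 1.48. In all 8 the shorter region of replicate 1 had the higher score, with medians of 3.00 in replicate 1 and 1.77 in replicate 2. Replicate 1 also had the higher score in 237 of all 272 domains (87.1%). Replicate 2 covered 89.97% of the lowest-scoring domain and over 99% of each of the other 7.

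The replicate set is not independent of the replicate lists, so the limit was also applied to each list alone and the result read in the other. Of the 131 regions of at least 7 kb in replicate 1, 127 (96.9%, 95% Wilson interval 92.4% to 98.8%) touched a region of at least 7 kb in replicate 2, against 385 of its 4959 narrower regions (7.76%, 7.05% to 8.54%). Of the 347 regions of at least 7 kb in replicate 2, 126 (36.3%, 31.4% to 41.5%) touched one in replicate 1, against 10 of 4714 narrower ones (0.21%, 0.12% to 0.39%). Thus all but 4 of the regions that were broad in replicate 1 met a broad region in replicate 2. Within the set, 130 domains had a piece of at least 7 kb in replicate 1, 261 in replicate 2, 126 in both and 7 in neither. A further 86 regions of at least 7 kb in replicate 2 did not reach that width in the set, where 41 fell on 1 narrower region and 45 on several.

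By chromosome, the domains were spread over all large arms. X carried 61, 3R 63, 2R 50, 3L 49 and 2L 47, which is 2.72, 2.26, 2.36, 2.00 and 2.04 per Mb. As a share of the regions of a large arm, X stood highest with 6.67% (95% Wilson interval 5.23% to 8.48%) and 2R lowest with 4.68% (3.57% to 6.11%). The 4 autosomal arms together had 4.92% (4.31% to 5.61%). In replicate 2 the share of regions of at least 7 kb was 8.50% on X (6.85% to 10.5%) and 6.66% on the autosomal arms (5.93% to 7.47%). In replicate 1 it was 3.04% (2.10% to 4.38%) and 2.51% (2.07% to 3.03%). X was higher than the autosomal arms together in all 3 lists, and in replicate 1 the share on 2L was 3.05%. The intervals of X and the autosomal arms overlapped in each list. Overlap does not decide whether the shares differ, and the difference was not tested. Median widths were close, from 8199 bp on 3R to 8462 bp on 2R, and so were median scores, from 2.65 on 2L to 2.77 on X. Domains of 10 kb or more numbered 16 on X, 14 on 3R, 12 on 3L, 11 on 2L and 8 on 2R.

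**Figure D4:**
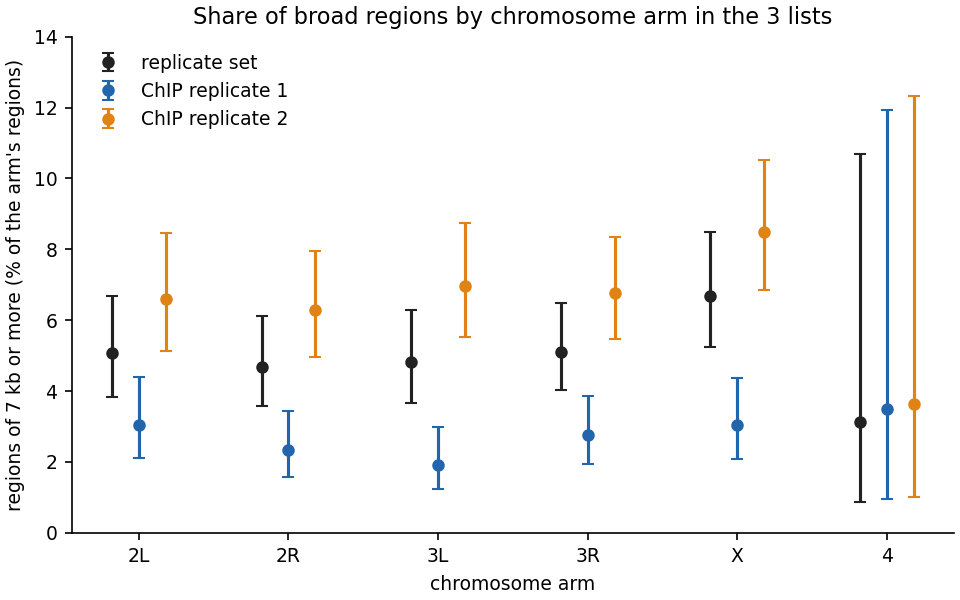
Regions of 7 kb or more as a percentage of all regions of an arm, in the replicate set (black), ChIP replicate 1 (blue) and ChIP replicate 2 (orange), with 95% Wilson intervals for counting error. X has the highest point in the replicate set (6.67%) and in replicate 2 (8.50%), replicate 1 lies under both other lists on every large arm, and the interval on chromosome 4 is wide.

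Chromosome 4 had 2 domains among its 64 regions. The wider, from 1045380 to 1055194 (9815 bp, score 2.53), was 1 region in each replicate, with a score of 2.89 in replicate 1 and 2.06 in replicate 2. The other, from 678438 to 686222 (7785 bp, score 2.70), was 1 region of 7.47 kb in replicate 1 and 2 in replicate 2, the wider of 4.70 kb, 49 bp apart. It is 1 of the 6 domains that only replicate 2 splits. The 6 Het sequences, which are scaffolds assigned to heterochromatin, and U, which collects unplaced scaffolds, had no domain among 90 regions. In the whole list the share was 5.12%. The count of 0 allows a share of up to 3.33% (3 divided by 90, an approximate 95% limit and not a Wilson interval). Regions on these sequences had a median width of 2342 bp. The widest measured 6255 bp, on 2LHet from 30374 to 36628, with a score of 2.26.

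Taken over the large arms together, domains and narrower regions alike were sparse at the assembled centromere ends, but not on 3R. The 1 Mb at that end held 3 of 270 domains on the large arms (1.11%, 95% Wilson interval 0.38% to 3.22%), all on 3R. It held 122 of 4890 narrower regions (2.49%, 2.09% to 2.97%), of which 47 lay on 3R. The whole of 3R had 2.26 domains and 41.9 narrower regions per Mb, so its centromere end was not sparse in either. The 1 Mb at the telomere end held 17 domains (6.30%, 3.97% to 9.85%) and 223 narrower regions (4.56%, 4.01% to 5.18%). Either kind of end makes up 4.20% of the arms. Both pairs of intervals overlapped, which does not decide whether the shares differ, and the differences were not tested. Of 117 whole 1 Mb bins, 22 had no domain, and 15 had 5 or more. Those 15, picked by their domains, were 12.8% of the bins. They held 31.6% of the domains in the bins and 15.2% of all regions there. The fullest began at 10 Mb of 2L, at 11 Mb of X and at 15 Mb of X, with 7 domains each, among 66, 44 and 60 regions. The longest stretches without a domain inside an arm were 2468 kb on 2L from 13837367 to 16305485, with 59 narrower regions in it, and 2417 kb on X from 13184493 to 15601943, with 99. The second ended inside the bin at 15 Mb of X, whose 7 domains all lay beyond that point.

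The nearest neighbour of a broad domain was closer, in the median, than that of a narrower region, and the regions just under the limit lay between. The nearest other enriched region lay a median of 2256 bp away from a domain, measured edge to edge, and 3237 bp away from a narrower region, a difference of -981 bp. A neighbour within 5 kb was present for 201 domains (73.9%, 95% Wilson interval 68.4% to 78.8%) and for 3133 narrower regions (62.1%, 60.8% to 63.5%), against 62.7% of all regions, a difference of 11.8 percentage points. Other regions covered a median of 23.1% of the 50 kb on either side of a domain and 19.6% around a narrower region. The 588 regions of 5 kb to under 7 kb came near the domains, with a median gap of 2542 bp, a neighbour within 5 kb for 67.9% (64.0% to 71.5%) and 21.8% of their flanks covered. The share with a neighbour within 5 kb was 66.7% among the 42 domains of 10 to 12 kb and 66.9% among regions of 5 to 6 kb. Applied to each replicate list alone, the same rule gave differences of 12.1 points in replicate 1 and 8.74 in replicate 2 for the neighbour within 5 kb. Both differences had the sign of that in the replicate set. No test is given for these differences, since regions are not replicates. In the higher-scoring 50% of the list, with neighbours counted only within it, the differences were 2.50 points and -106 bp. With broad meaning 10 kb or more in the full list they were 6.18 points and -456 bp. The nearest neighbours of domains were somewhat wider (median 3461 bp, against 3059 bp) and scored higher (2.29, against 2.08).

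**Figure D5:**
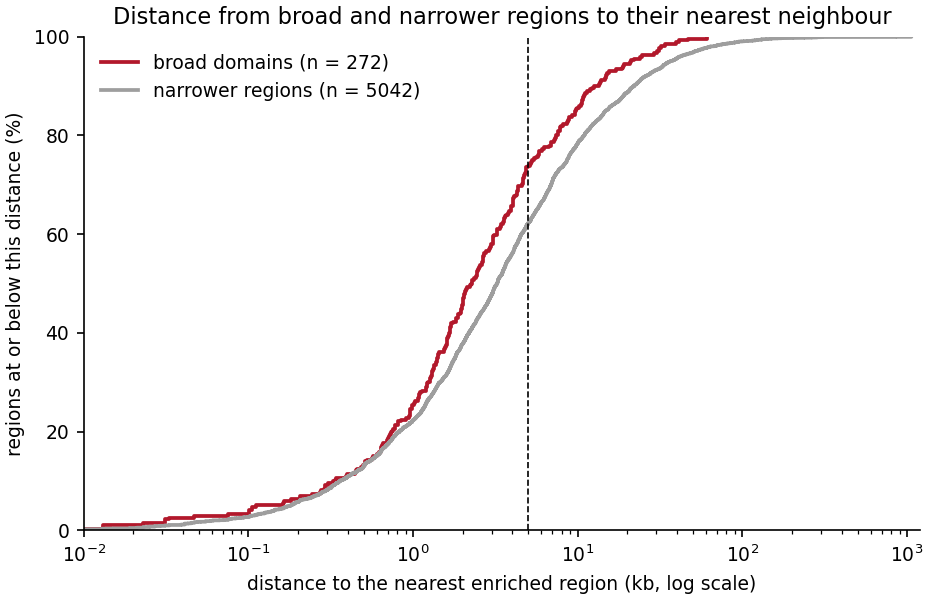
Cumulative share of regions by distance in kb (log scale) to the nearest other enriched region of the replicate set, for the 272 broad domains (red) and the 5042 narrower regions (grey), with 5 kb as a dashed line. The curves lie close together under 1 kb and part above it, reaching 73.9% of domains and 62.1% of narrower regions at 5 kb.

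Domains followed each other at close to the share of broad regions in the whole list, 5.12%. The region after a domain was itself broad in 16 of 272 cases (5.88%), and after a narrower region in 256 of 5029 (5.09%). There were 243 single domains, 10 runs of 2 and 3 runs of 3. The nearest other domain lay a median of 104.6 kb away, with quartiles of 26.7 and 315 kb. Of the 7 pairs less than 5 kb apart, 4 lay on X, which held 61 of the 272 domains (22.4%). None of the 7 pairs was bridged by a region in either replicate. The closest pair, on 3R, spanned 17847072 to 17855310 (8.24 kb, score 3.08) and 17856118 to 17863310 (7.19 kb, score 2.73), with 807 bp between them. The next lay on X, from 10737764 to 10744942 and from 10746548 to 10753768, with 1605 bp between them and scores of 3.10 and 2.82. On 2R, domains of 7.92 and 9.07 kb stood 1663 bp apart from 9106106 to 9124762. Between 15625274 and 15695162 on X lay 2 such pairs, with 2709 and 2767 bp inside each pair.

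A few domains stood alone. No other region lay within 20 kb of 15 domains (5.51%) and of 569 narrower regions (11.3%). The most isolated, on 3L from 16220054 to 16227812 (7.76 kb, score 2.57), had 61.3 kb free on its left and 104.0 kb on its right, and no other region in its flanks. Each replicate held it with a single region, which measured 7.51 kb in replicate 1 and was slightly wider, 7.82 kb, in replicate 2. On 3R the domain from 14916952 to 14925150 (8.20 kb, score 2.70) had at least 46.7 kb free on each side, and on X that from 4210778 to 4218228 (7.45 kb, score 2.17) at least 41.3 kb. The others of the 6 most isolated lay on 3L (10.1 kb from 538156 and 8.15 kb from 17791736) and X (8.73 kb from 9974646), with 39.6, 34.0 and 31.9 kb to the nearest region. Their scores, from 2.07 to 2.81, lay within the range of the other domains, and replicate 1 split 1 of the 6.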

How the data were processed

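Regions, positions and scores are as deposited by the authors, in 3 lists: one for the replicate set and one for each ChIP replicate. Positions are 1-based on FlyBase release 5, per the file headers. Bowtie 0.12.7 stands in the submitters' processing notes. No caller or threshold, and no rule for combining replicates, is given in the sources used here. The score in the deposited lists has no stated unit. The lists hold no read counts, so the depth is unknown, and shallow sequencing and a true break or end cannot be told apart.

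Regions called enriched were read, and 2 called depleted were left out. Overlaps, gaps and covered flanks were computed with Python 3.11.15, numpy 2.4.6 and pandas 2.3.3, 95% Wilson intervals with scipy 1.17.1 and figures with matplotlib 3.10.9. These intervals cover counting error only. Per the labels, inputs were matched crosswise, the first to the second ChIP sample and the second to the first. The interval code was tested on simulated lists. No test between groups exists: the inputs have no list here, and regions are not replicates. The members and rules were chosen with earlier results of these data known. Sites named are the widest, highest-scoring, lowest-scoring, most divided, least covered, most isolated and closest domains, those at the width limit and all on chromosome 4. The 8 domains that replicate 1 covers by under 60%, the bins and the stretches without a domain were singled out after their values were seen. The gene table at hand is of release 6, so no position was converted, no gene named and no sequence read.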

Additional observations from a re-analysis of the deposited data

How the results depend on the processing

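No choice turned round the sign of a difference between broad and narrower regions. The counts, the shares and the spread between arms cannot change sign. Of 83 recomputed values, 46 moved by less than 1 SD of the 2 replicate values (the count of domains, within 1.5 times). That SD rests on the same 2 lists as the choices that leave out a replicate. It was 23.1 points for the share held as 1 piece, so a small shift against it says little. The cause of the larger shifts was not tested, beyond what each choice does by construction. A width limit of 6 kb gave 491 domains, 9.24% of regions and 20.4% of enriched length, a score difference (broad minus narrower) of 0.91, a gap difference of -826 bp, 20.8% of domains on X and a spread between arms (highest minus lowest broad share) of 2.82 points. A limit of 10 kb gave 61 domains, 1.15%, 3.84%, -456 bp, 6.18 points for a neighbour within 5 kb, 26.2% on X and a spread of 1.00 point. The higher-scoring 50% of the list was taken as a list of its own, with neighbours and flanks counted only within it. It gave 9.71% of regions, a score difference of 0.14, -106 bp and 2.50 points. For the flanks it gave 1.44 points, and the spread was 3.47 points. Merging regions less than 500 bp apart gave 419 domains, 8.47%, 21.0%, -1361 bp, 14.6 points and 20.8% on X. A neighbour limit of 2 kb gave 7.77 points and one of 10 kb 7.26. Flanks of 20 kb gave 5.31 points and of 100 kb 2.53, against 3.52 as reported.

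Leaving out either ChIP replicate, by applying the rule to the list of the other, gave 131 to 347 domains with 6.71% to 16.6% of enriched length, score differences of 0.74 to 0.79, gap differences of -1010 to -791.5 bp, 8.74 to 12.1 points for a neighbour within 5 kb, 20.6% to 21.9% of domains on X and a spread between arms of 1.13 to 2.22 points. No paired analysis was possible because the input samples have no list of regions here.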
